A study of Mus musculus with 8 samples.

Results

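Slc51a, Slc51b, Fabp6 and Slc10a2 are genes that move bile acids through an epithelial cell: entry, carriage across the cytosol and exit. They were measured in mouse kidney proximal tubule cells in primary culture, with and without GW4064, a synthetic agonist of the bile acid receptor FXR. The 4 genes were listed by name, and every probe whose RefSeq transcript belongs to one of them was taken from the arrays. This gave 1 probe per gene, so 4 of the 39429 non-control probes and 4 of the 20659 genes that could be named. The choice of genes used no measured value, although it was made with earlier results of these arrays known.

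Cells came from male C57/BJ mice aged 6 weeks, and no genetic change is given for either group. Cortex was digested with trypsin, the pelleted tubules were plated and the cells were grown to confluence. They were then held in serum-free medium for 24 h with DMSO, the solvent, or with 1 µM GW4064, and 4 RNA samples per group were hybridised, each to its own one-colour Agilent array. Nothing in the labels tells separate mice from separate dishes, so the p-values rest on the scatter among these 8 samples, and that scatter could be purely technical. Only 1 dose, 1 time and 1 agonist were used, and the tubules were pelleted without a step that selects the proximal segment.

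Slc10a2, the apical sodium-dependent bile acid transporter, takes bile acids up with sodium from the ileal lumen and from the filtrate of the proximal tubule. Fabp6, the ileal bile acid binding protein, is a small cytosolic carrier of the intracellular lipid binding family. Slc51a and Slc51b are the alpha and beta subunits of the organic solute transporter, a basolateral carrier that lets bile acids leave the cell and works only when both subunits are made. FXR, the product of Nr1h4, is a nuclear receptor that binds DNA together with a retinoid X receptor, typically at an inverted repeat of the hexamer AGGTCA with a single base between the copies, called IR-1. In the ileum, Slc51a, Slc51b and Fabp6 are textbook FXR targets that rise when bile acids are abundant, whereas Slc10a2 is under negative feedback by bile acids.

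The 250 bases upstream of each RefSeq start are printed because these are the windows in which the IR-1 letters were searched. All 4 genes lie on the minus strand of GRCm38.p6, and each window is written 5′ to 3′ in the direction of transcription. The windows are chr16:32487880-32488129 for Slc51a, chr9:65422774-65423023 for Slc51b, chr11:43601563-43601812 for Fabp6 and chr8:5105288-5105537 for Slc10a2. The capitals mark the closest matches to IR-1 in each.

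Slc51a: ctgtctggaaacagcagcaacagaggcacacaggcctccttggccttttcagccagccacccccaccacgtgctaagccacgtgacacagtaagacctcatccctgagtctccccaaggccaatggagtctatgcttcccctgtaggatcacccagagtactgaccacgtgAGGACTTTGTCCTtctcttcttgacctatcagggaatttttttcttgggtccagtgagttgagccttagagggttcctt

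Slc51b: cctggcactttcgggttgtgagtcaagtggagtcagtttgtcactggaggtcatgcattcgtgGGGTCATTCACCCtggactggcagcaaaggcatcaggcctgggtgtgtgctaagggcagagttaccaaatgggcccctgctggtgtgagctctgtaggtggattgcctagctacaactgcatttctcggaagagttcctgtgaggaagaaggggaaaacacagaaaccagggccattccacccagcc

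Fabp6: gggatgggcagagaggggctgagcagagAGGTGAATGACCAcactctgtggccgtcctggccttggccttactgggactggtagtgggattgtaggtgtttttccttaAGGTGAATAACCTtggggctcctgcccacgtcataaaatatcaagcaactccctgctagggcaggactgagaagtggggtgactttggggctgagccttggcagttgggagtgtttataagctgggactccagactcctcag

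Slc10a2: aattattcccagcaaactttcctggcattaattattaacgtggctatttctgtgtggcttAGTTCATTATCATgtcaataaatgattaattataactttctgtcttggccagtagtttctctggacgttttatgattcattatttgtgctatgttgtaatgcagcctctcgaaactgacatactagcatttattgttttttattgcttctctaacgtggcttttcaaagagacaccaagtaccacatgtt

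Both strands were searched for AGGTCA, any base, TGACCT, with mismatches counted over the 12 fixed letters. The Fabp6 window held the closest matches of the set, both with 2 mismatches, at bases -222 to -210 (AGGTGAATGACCA) and -142 to -130 (AGGTGAATAACCT) from the start. A match that close was present in 315 of 32851 RefSeq promoter windows of the same length, or 0.959%. The best matches had 3 mismatches in Slc51a, at -79 to -67 (AGGACTTTGTCCT), and in Slc51b, at -187 to -175 (GGGTCATTCACCC), a level that 9.63% of the windows reached. Slc10a2 had none closer than 4 mismatches, at -190 to -178 (AGTTCATTATCAT), which 16431 of the 32851 windows reached. A single AGGTCA hexamer stood at -58 in Slc51a, on the opposite strand, and at -203 in Slc51b, and neither Fabp6 nor Slc10a2 had one. Across all windows, 4607 of 32851 held that hexamer. These are matches of letters in a short window, not measured binding, and the arrays say nothing of which sites were bound.

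Across the whole series, within-group correlations across probes were 0.996 to 0.997, and 61.4% to 65.7% of probes were well above background on an array by the scanner's own call. The arrays lay on 2 slides scanned on separate days, each with 2 DMSO and 2 GW4064 arrays, and on both slides the DMSO arrays took the first places, so place on the slide and treatment cannot be told apart. Among all genes with a kept probe 10.5% were called higher and 7.43% lower, which is the background for the marker counts. Proximal tubule markers were present: 14 of 15 were kept, with 10 higher and 2 lower under GW4064, and a summed scaled level of 101 to 131 in DMSO and 125 to 141 in GW4064. Markers of other cells were measured as well. Leukocyte markers summed to 9.69 to 11.1 in DMSO and 12.6 to 14.7 in GW4064 (2 of 6 kept were higher, of 7 listed). Fibroblast and smooth muscle markers summed to 27.9 to 36.2 and 36.5 to 42.3 (2 of 6 kept were higher). Endothelial markers summed to 1.90 to 2.71 and 2.65 to 2.94 (3 of 5 kept were higher, of 6 listed). Podocyte markers summed to 4.55 to 6.01 and 4.97 to 6.32 (0 of 3 kept were called). Markers from thick limb to collecting duct summed to 0.274 to 0.285 and 0.243 to 0.306 (1 of 4 kept was lower, of 7 listed). Calb1 and Tek were above background on 0 arrays. The part of these shifts in the results that follow was not tested. In bulk RNA, a change in the number of cells of a type and a change in RNA per cell cannot be told apart.

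GW4064 arrays carried far more Slc51a, Slc51b and Fabp6 signal than DMSO arrays, and the groups did not overlap for Slc51a or Slc51b. Slc51a was 121-fold higher, Slc51b 10.6-fold higher and Fabp6 at least 61.6-fold higher, with n = 4 arrays per group. Slc10a2, the uptake carrier, was 1.55-fold lower in GW4064, with overlapping groups and a difference that missed the threshold (6.71% of kept probes were called lower). Of the 3 probes measured above background in both groups, 2 passed limma's test at an adjusted p under 0.05, both higher, where 8.64% of the 24723 kept probes were called higher and 15.4% were called in either direction. Groups did not overlap for those same 2 probes, against 23.1% of all kept probes. All 4 probes passed the filter, which kept a probe if 4 or more of the 8 arrays read it well above background. Fabp6 was kept through its GW4064 arrays alone, so it had to differ once it was kept and is left out of these counts, while the other 3 were well above background on all 8 arrays.

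**Figure D1:**
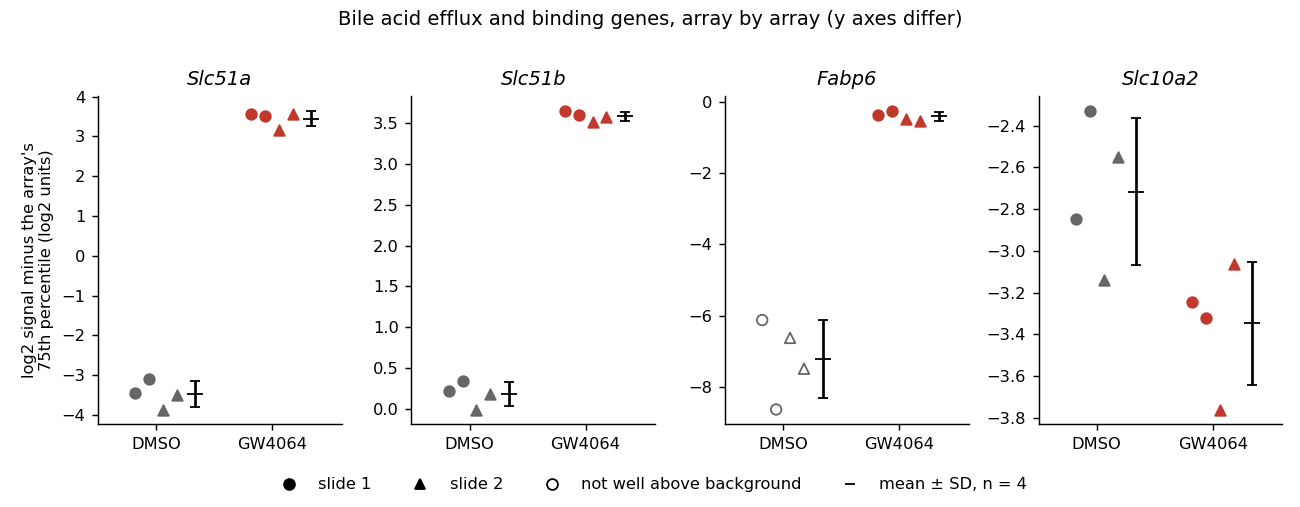
Scaled log2 signal of each gene's probe on every array, with 1 panel per gene and its own y axis, symbols by slide, open symbols for spots not well above background, and bars for the mean ± SD of 4 arrays. The GW4064 arrays of Slc51a, Slc51b and Fabp6 all sit above the DMSO arrays, whereas for Slc10a2 the DMSO array at -3.14 lies below the GW4064 array at -3.06.

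Slc51a encodes the alpha subunit, a membrane protein that needs its partner to leave the endoplasmic reticulum. Its probe (A_52_P229981, NM_145932) gave processed signals of 145, 200.0, 115 and 184 in DMSO replicates 1 to 4 and 21662, 16860, 13148 and 15211 in GW4064 replicates 1 to 4. No GW4064 array came near a DMSO array: after scaling, the lowest GW4064 value was 76.4-fold above the highest DMSO value. On the log2 scale, relative to each array's 75th percentile, the values were -3.45, -3.09, -3.86 and -3.49 in DMSO and 3.56, 3.50, 3.17 and 3.56 in GW4064. The means were -3.47 ± 0.32 and 3.45 ± 0.19 (SD, n = 4). Thus the gene went from well below the upper quartile of its arrays to well above it. The log2 fold change was 6.92 ± 0.16 (SE; 95% interval 6.55 to 7.29), a 121-fold rise (93.5 to 157), with a limma adjusted p of 2.92e-07 and all GW4064 arrays above all DMSO arrays. GW4064 replicate 3 stood apart below the other GW4064 arrays, and without it the log2 fold change was 7.01. The size of this fold also depended on background handling. The log2 fold change was 5.84 with normexp correction and 6.05 with normexp and quantile normalization, chosen after seeing the data. Both lie below the 95% interval, which covers the scatter between arrays only.

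Slc51b encodes the beta subunit, a short single-pass protein that escorts the alpha subunit to the plasma membrane. In DMSO its probe (A_52_P229943, NM_178933) read 1845, 2151, 1657 and 2347, and in GW4064 it read 23079, 18111, 16778.5 and 15375. The signal was therefore clear of background in cells given DMSO alone, and every GW4064 array read above every DMSO array. Scaled log2 values were 0.22, 0.34, -0.01 and 0.18 in DMSO and 3.65, 3.61, 3.52 and 3.57 in GW4064, with means of 0.18 ± 0.15 and 3.59 ± 0.05 (SD, n = 4). The spread between GW4064 arrays was the smallest of the 4 genes in either group. The log2 fold change was 3.41 ± 0.07 (SE; 95% interval 3.24 to 3.58), or 10.6-fold (9.42 to 11.9), with a limma adjusted p of 2.92e-07.

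The 2 subunits rose by different factors. Because probes differ in brightness, the signal of one probe cannot be set against the other as a level, but the change of their difference from DMSO to GW4064 can be measured within arrays. The log2 signal of Slc51a minus that of Slc51b was -3.67, -3.43, -3.85 and -3.67 in DMSO and -0.09, -0.10, -0.35 and -0.02 in GW4064. The ranges of the groups lay far apart. The means, -3.65 ± 0.17 and -0.14 ± 0.15 (SD, n = 4), differed by 3.51 (SE 0.11), so the Slc51a fold was 11.4 times the Slc51b fold. A two-sided exact permutation test over the 70 divisions of the arrays gave p = 0.0286, the smallest value that 4 against 4 arrays allow. On slide 1 alone the difference was 3.45 and on slide 2 alone it was 3.58. Its size depended on background handling. With normexp correction it was 2.46, and with normexp and quantile normalization, chosen after seeing the data, it was 2.73. It measures unequal change of the probes, not unequal amounts of the subunits.

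**Figure D2:**
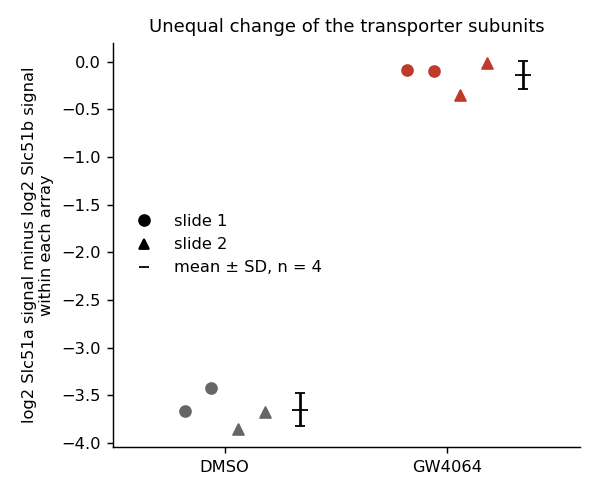
Difference between the log2 signals of Slc51a and Slc51b within each array (y axis, log2 units) by group, with symbols by slide and bars for the mean ± SD of 4 arrays. The DMSO arrays lie between -3.85 and -3.43 and the GW4064 arrays between -0.35 and -0.02.

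Fabp6 encodes the cytosolic bile acid carrier that is abundant in ileal enterocytes. Its probe (A_55_P2033795, NM_008375) read 22.7, 4.27, 16.9 and 11.5 in DMSO, and none of these spots was well above background. The lowest signals that counted as well above background on those arrays were 22.9, 19.6, 19.7 and 23.9. In GW4064 the probe read 1439, 1244, 1060.1 and 888, well above background on every array. GW4064 samples therefore had a clear Fabp6 signal where DMSO samples had none that could be told from background. Scaled log2 values were -6.12, -8.64, -6.63 and -7.49 in DMSO and -0.36, -0.26, -0.46 and -0.54 in GW4064, with means of -7.22 ± 1.10 and -0.40 ± 0.12 (SD, n = 4). The wide DMSO spread lay in the range where the scanner's own error estimate was 23.7% to 99.6% of the signal. With the DMSO arrays set at the lowest measurable signal, Fabp6 was at least 61.6-fold higher in GW4064. The fit on the measured values gave a log2 difference of 6.82 ± 0.48 (SE) with a limma adjusted p of 8.27e-05, and that fold is not a measured size. Since the filter kept Fabp6 through its GW4064 arrays alone, p-values from fits with that filter are no evidence of a difference. With normexp background correction the log2 difference was 3.35 with a limma adjusted p of 0.232, and in slide 1 alone it was 7.07 with a limma adjusted p of 0.0570. With no filter it was 6.82 with a limma adjusted p of 0.000451, still fitted on DMSO signals at background.

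Slc10a2 encodes the apical uptake transporter. Its probe (A_51_P243755, NM_011388) read 221, 338, 189.7 and 354 in DMSO and 194, 149, 108 and 154 in GW4064. The GW4064 signals were mostly lower, but after scaling the groups overlapped: 15 of the 16 possible pairs of a GW4064 and a DMSO array had the GW4064 value lower. Scaled log2 values were -2.85, -2.33, -3.14 and -2.55 in DMSO and -3.24, -3.32, -3.76 and -3.06 in GW4064, and DMSO replicate 3 and GW4064 replicate 4 were the arrays that crossed. The means were -2.72 ± 0.35 and -3.35 ± 0.30 (SD, n = 4). A log2 difference of -0.63 ± 0.20 (SE; 95% interval -1.09 to -0.17) gave a limma p of 0.0135, which was 0.0719 after Benjamini-Hochberg adjustment over all kept probes. The signal was 1.55-fold lower (1.12 to 2.13), a difference that was not called. It was -0.69 within slide 1 and -0.57 within slide 2. Whether it passed depended on the setting, since it did in 5 of 24 alternatives. Among those 5, no scaling and normexp with quantile normalization were chosen after seeing the data. Another of them was a block on replicate number, and the labels do not say whether the numbers pair the arrays. Without DMSO replicate 3 it was -0.77 with a limma adjusted p of 0.0354, and with trended robust variances on all 8 arrays it was -0.63 with a limma adjusted p of 0.0353.

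**Figure D3:**
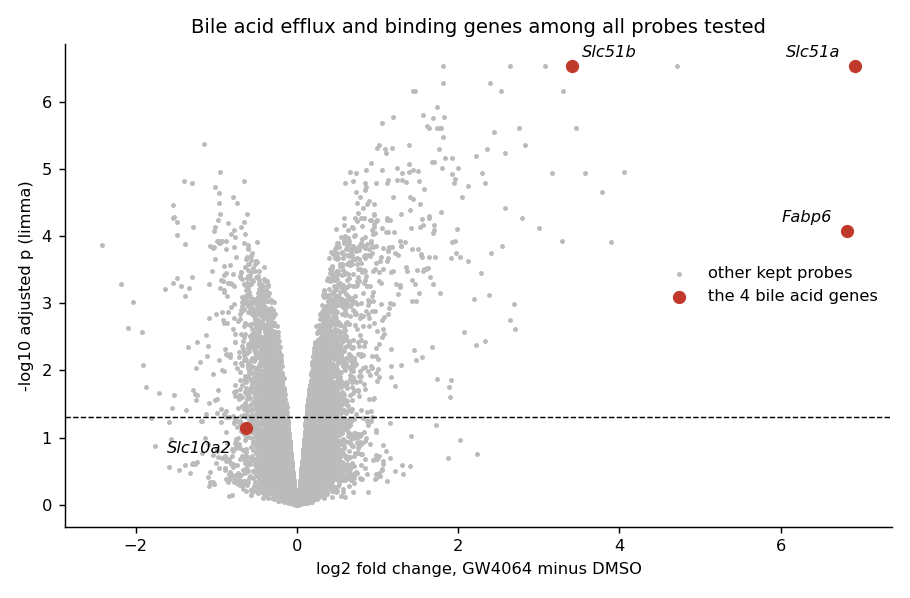
Log2 fold change (x axis, GW4064 minus DMSO) against -log10 of the limma adjusted p (y axis) for the 24723 kept probes, with the 4 genes in red and a dashed line at an adjusted p of 0.05. Slc51a, Slc51b and Fabp6 lie above the line at 6.92, 3.41 and 6.82, and Slc10a2 lies just under it at -0.63. Fabp6 was kept through its GW4064 arrays alone, so its place above the line is no evidence of a difference.

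**Figure D4:**
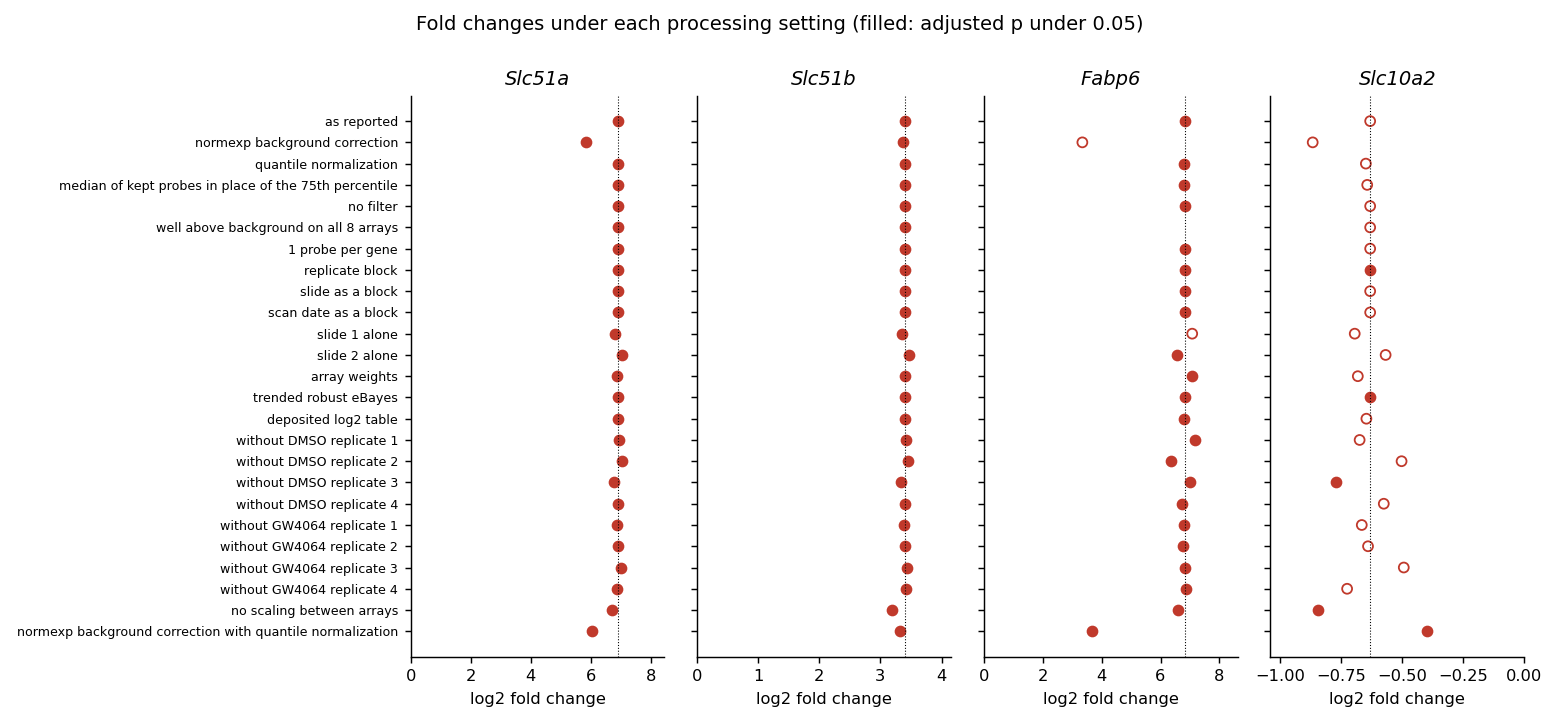
Log2 fold change of the 4 genes (x axes, GW4064 minus DMSO, each with its own range) as reported and under the alternative processing settings (rows), filled where the adjusted p was under 0.05 and empty where the gene was not tested. Slc51a and Slc51b are filled in every row, Fabp6 is open with normexp correction and in slide 1 alone, and Slc10a2 is filled in 5 of the 24 alternatives. Where the filter was used, the Fabp6 fills are no evidence, since its GW4064 arrays alone kept it.

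Variation between replicate arrays can be read on the processed signal before scaling as well, where it includes differences in brightness between whole arrays. The 75th percentiles ran from 1586 to 2070 in DMSO and from 1290.5 to 1840 in GW4064. The coefficient of variation over the 4 arrays was 23.9% in DMSO and 21.7% in GW4064 for Slc51a, 15.4% and 18.3% for Slc51b, and 29.9% and 23.3% for Slc10a2. For Fabp6 it was 20.5% in GW4064 and 56.8% in DMSO, where the spots were at background. None of the spots was saturated or marked as an outlier. DMSO replicate 3 had the lowest scaled value of its group for Slc51a, Slc51b and Slc10a2, and GW4064 replicate 3 had the lowest of its group for those same genes.

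The arrays also measured other genes of bile acid transport, binding and sensing. A list of 56 such genes in 5 roles, drawn up from general knowledge with earlier results of these arrays known, had 35 with a kept probe. Of these, 10 rose, 4 fell and 21 did not pass, while among all 14476 genes with a kept probe 10.5% were called higher and 7.43% lower. The same shares are the background for the counts by role that follow. Groups did not overlap for 15 of the 35 genes, against 26.4% of all genes. The median log2 fold change was 0.11 over the 35 genes and 0.019 over all genes. The remaining 21 had no probe that passed the filter, among them the canalicular bile salt pump Abcb11, the enterokine Fgf15 and its co-receptor Klb, which were above background on 0 arrays. Nr0b2, the FXR-induced repressor SHP, was above background on 1 array, a GW4064 array.

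Among 10 uptake carriers, 5 were kept and 1 rose. Slco1a6, an organic anion transporting polypeptide, had a log2 fold change of 0.52 ± 0.12 (SE; 1.44-fold, limma adjusted p 0.0242). Its call was lost in 8 of 24 alternatives, and its sign changed with normexp correction. Leaving out DMSO replicate 2, GW4064 replicate 1, 2 or 4 gave limma adjusted p-values of 0.0514, 0.0671, 0.0574 and 0.0581. The prostaglandin carrier Slco2a1, at -0.16 ± 0.07, and the hepatocyte bile acid carrier Slc10a1, at 0.11 ± 0.11, did not pass. The Slc10a1 probe was very bright, with a nearly level processed DMSO signal, before scaling, of 345926 ± 5251 (SD, n = 4). A second probe for the same transcript was above background on 0 arrays. In the rest of the SLC10 family, 2 of 5 were kept. Slc10a3 rose by 0.34 ± 0.05 (1.26-fold, limma adjusted p 0.00212), and Slc10a7 stood at 0.07 ± 0.13 without passing. Slc10a2 was thus the SLC10 member with the greatest measured difference, though not one that passed.

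Of 12 export pumps and canalicular proteins, 9 were kept, 2 rose and 0 fell. Abcc2, an apical pump for conjugated organic anions, rose by 0.61 ± 0.07 (1.52-fold, limma adjusted p 0.000725). Abcb4, a phospholipid floppase, rose by 0.32 ± 0.06 (1.25-fold, limma adjusted p 0.00701). Abcb1a, a multidrug pump, stood at 0.31 ± 0.12 and did not pass (limma adjusted p 0.129), although it did without GW4064 replicate 4 (limma adjusted p 0.0423). Both pumps that rose did so by far smaller factors than either subunit of the organic solute transporter.

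Fabp6 belongs to a family of 14 other listed proteins, of which 8 were kept, 1 rose and 2 fell. Crabp1, a cellular retinoic acid binding protein, rose by 3.28 ± 0.25 (9.74-fold, limma adjusted p 0.000119). Its DMSO signals were dim, at 32.8 to 66.3, so the size of this fold depends on background handling. With normexp correction the Crabp1 log2 fold change was 1.50 with a limma adjusted p of 0.675, and the call was kept in 23 of 24 alternatives. The brain-type carrier Fabp7 fell by 0.53 on the log2 scale (SE 0.08, 1.44-fold, limma adjusted p 0.00374), and the retinoic acid carrier Crabp2 fell by 0.41 (SE 0.09, 1.33-fold, limma adjusted p 0.0220). The Crabp2 call was lost in 7 of 24 alternatives, among them without DMSO replicate 3 (limma adjusted p 0.0531) and without GW4064 replicate 1 (limma adjusted p 0.0607). Against 10.5% of all genes called higher and 7.43% lower, these few calls are not read as a trait of the family. The liver form Fabp1 was above background on 1 array only, a GW4064 array.

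Among 15 receptors and regulators, 11 were kept, 5 rose and 2 fell. Nr1h4, the gene of FXR itself, fell from a scaled log2 mean of 2.36 ± 0.06 to 1.91 ± 0.07 (SD, n = 4), a log2 fold change of -0.45 ± 0.05 (1.36-fold lower, limma adjusted p 0.000699). Its own transcript was therefore lower on arrays where Slc51a, Slc51b and Fabp6 were higher. Hnf4a, a nuclear receptor of hepatic and proximal tubule identity, rose by 0.85 ± 0.05 (1.81-fold, limma adjusted p 1.84e-05). Fgfr4, a receptor for FGF15, rose by 0.58 ± 0.04 (1.50-fold, limma adjusted p 5.43e-05). Further genes called in this role, named after their values were seen, included the xenobiotic receptor Nr1i2 at 1.54 ± 0.13, the vitamin D receptor Vdr at 0.29 ± 0.06 and the membrane bile acid receptor Gpbar1 at -0.32 ± 0.07.

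**Figure D5:**
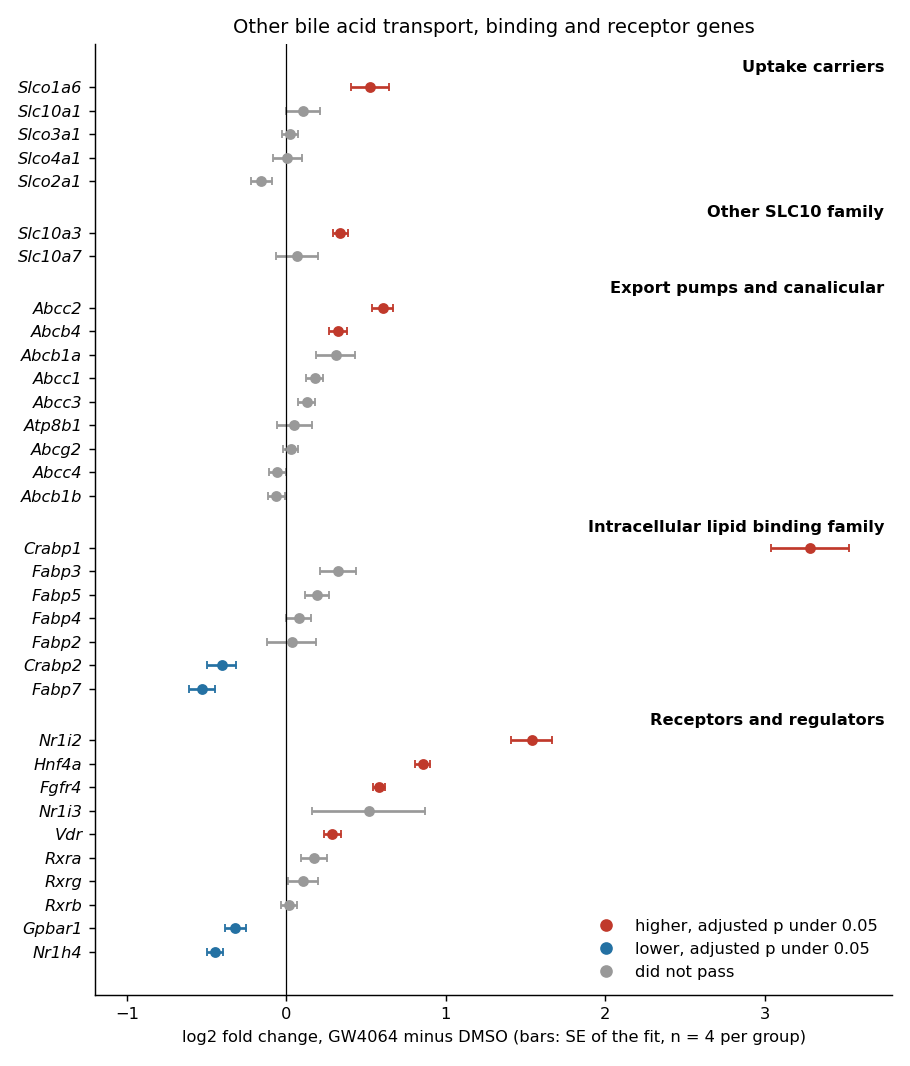
Log2 fold change (x axis, GW4064 minus DMSO, bars for the SE of the fit) of 33 of the 35 listed genes with a kept probe, grouped by role, red where higher, blue where lower and grey where the test was not passed. Crabp1 at 3.28 and Nr1i2 at 1.54 lie farthest to the right, and most other genes lie near 0.

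The genes whose profile over the 8 arrays was most like that of each of the 4 were found by Pearson correlation over 14472 genes. The arrays fall into 2 treatment groups, so a high value mostly records the step between the groups, and the values are a description with no test. For Slc51a these were Itih3, a heavy chain of inter-alpha-trypsin inhibitor (r = 0.999, 3.55-fold), the ribonuclease Rnase4 (r = 0.999, 3.50-fold), the fatty acid hydroxylase Cyp4a12b (r = 0.999, 1.90-fold), the phenol sulfotransferase Sult1a1 (r = 0.998, 3.52-fold) and the organic anion carrier Slc17a4 (r = 0.998, 5.27-fold). Slc51b shared 4 of these, Rnase4, Itih3, Slc17a4 and Cyp4a12b, and had glutathione reductase, Gsr (r = 0.999, 1.58-fold), in place of Sult1a1. Cyp4a12b has a near-identical neighbour, so its probe may read both genes. For Fabp6 they were the deiminase Padi2 (r = 0.995, 3.25-fold), D130043K22Rik (r = 0.994, 2.92-fold), Spaca7 (r = 0.994, 1.44-fold), the angiogenin Ang4 (r = 0.994, 2.65-fold) and the inositol phosphate synthase Isyna1 (r = 0.994, 1.50-fold). The Fabp6 values in DMSO were at background, so the order of these genes rests partly on background scatter. All of these genes passed limma's test and were higher in GW4064, each by less than the gene it resembled. They were picked for sharing that gene's step between the groups, so passing followed from the choice and is no added evidence. Among all genes with a kept probe, 10.5% were called higher.

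The genes most like Slc10a2, picked in the same way, had small differences, of which 2 of 5 passed the test. Among all genes with a kept probe, 7.43% were called lower. Nampt, the NAD salvage enzyme, had a log2 fold change of -0.48 ± 0.13 (limma adjusted p 0.0460, r = 0.981). Acsm2, a medium-chain acyl-CoA synthetase of the proximal tubule, had one of -0.65 ± 0.16 (limma adjusted p 0.0300, r = 0.979). Fbxo8 at -0.13 ± 0.05 (r = 0.985), the transcription factor Klf4 at -0.14 ± 0.05 (r = 0.979) and Zfyve21 at -0.17 ± 0.05 (r = 0.976) did not pass. The Nampt call was lost in 12 of 24 alternatives and the Acsm2 call in 10. Without single arrays, both were kept only when DMSO replicate 3 or GW4064 replicate 4 was left out, and the highest limma adjusted p was 0.112 for Nampt and 0.0767 for Acsm2.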

How the data were processed

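RNA of 8 samples (4 DMSO, 4 GW4064) was measured on one-colour Cy3 arrays. Per the file headers, Agilent Feature Extraction 10.7.3.1 gave each spot's processed intensity, background-subtracted and detrended within the array; the header's genome build is mm9. The deposited log2 table (limma is named in the submitters' processing notes; its scale and centring are not given in the sources used here) served as an alternative. Each array has 44397 spots, of which 1377 are controls; the number of arrays limits the precision.

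Spots of a probe were averaged, and log2 signals were taken minus each array's 75th percentile. Probes well above background on at least 4 of 8 arrays were kept (24723), and 85 with an outlier flag were left out. RefSeq transcripts gave a symbol to 27234 probes (69.1%; table of GRCm38.p6); a gene other than the 4 was read from its brightest kept probe. limma 3.58.1 in R 4.3.3 (lmFit, eBayes) with Benjamini-Hochberg adjustment was the test. On simulated data for this comparison with 24723 probes, it called 70 of 100 probes changed by 0.5 and 93 of 100 changed by 1 on the log2 scale, and 9 unchanged probes. The simulation drew independent normal noise and changed only those probes, a far smaller share than the 15.4% called in the data. Its rates may therefore differ from those in the data. A bound ("at least") sets each dim array at the higher of its lowest signal well above background and the probe's own signal.

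The genes and lists were chosen with earlier results of these data known. Named genes were the 4 genes, Nr1h4, up to 3 per role (called ones first by p, then by size), and the 5 most correlated with each of the 4 genes; some items that this rule or the lists hold are not reported here. Alternatives were normexp correction (offset 50), other scalings and filters, blocks, single slides, array weights, another variance model, the deposited table and leaving out each array.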

Additional observations from a re-analysis of the deposited data

Results flagged for a closer look

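Among the 74 groups of 4 arrays examined, 6 (8.11%) held an array far from the other 3, where chance gives about 1 in 20. For Slc51a, GW4064 replicate 3 was low at a scaled log2 value of 3.17, still above every DMSO array. The same array was low for Crabp1, at -2.33. In DMSO replicate 3, Abcb4 was low at -1.90, Abcb1a was high at -4.21 and Slc10a3 was high at 0.53. Sult1a1 was high in DMSO replicate 2, at -3.00.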

How the results depend on the processing

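Slc51a (log2 fold change 5.84 to 7.05) and Slc51b (3.19 to 3.46) kept their direction and passed the test under all 24 alternatives, and their within-array difference was 2.46 to 3.59. Fabp6 was untested under a filter on all 8 arrays and otherwise ranged from 3.35 to 7.18. Where the main filter was used, the Fabp6 p-values are no evidence of a difference, since its GW4064 arrays alone kept it. With normexp correction 86 probes were called (63 higher, 23 lower), 0 listed genes rose, 0 fell, Fabp6 was at 3.35 (adjusted p 0.232), and the median of all probes moved by -0.12. Slc10a7 (-0.56), Abcb1a (-0.43) and Slco1a6 (-0.025) then changed sign. Normexp with quantile normalization, chosen after seeing the data, called 3333 probes (1662 higher, 1671 lower), with Fabp6 at 3.67, Slc10a2 at -0.40 (adjusted p 0.0463) and Slc10a1 at -0.064. No filter left 2213 calls (1289 higher, 924 lower); more probes were then tested. Slide 1 alone, with fewer arrays, gave 581 (382, 199), list counts of 5 and 0, and Fabp6 at 7.07 (adjusted p 0.0570); slide 2 alone gave 157 (134, 23) and 2 and 0. Without scaling, chosen after seeing the data, 1808 were called, 360 higher against 2137 of 3796, and all probes shifted by -0.21; 3 listed genes rose, their median was -0.11, and Slc10a2 was at -0.84 (adjusted p 0.00201). Slc10a2 at -0.63 also passed with trended robust variances (adjusted p 0.0353). Whether the replicate numbers pair the arrays is not given in the labels. Same-number correlations were -0.11 to 0.14, no clear sign of pairing, though replicate 3 had 0.14 against at most 0.04 with other numbers. With the replicate block Slc10a2 passed at -0.63 (limma adjusted p 0.0274), 2 listed genes fell, and the within-array difference of 3.51 had an SE of 0.07.

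Leaving out each array gave 2439 to 3323 calls (1347 to 1901 higher, 1013 to 1422 lower), the lowest without DMSO replicate 4, 2472 without DMSO replicate 2 and 2524 without GW4064 replicate 1. Listed genes called higher numbered 9 to 11 and lower 3 to 4, with medians of 0.10 to 0.15. Slc10a2 was between -0.77 and -0.49, Fabp6 between 6.34 and 7.18. Slc10a7 also changed sign in slide 2 alone (-0.17), without scaling (-0.15) and without GW4064 replicate 2, where leaving out single arrays gave -0.029 to 0.18. Slc10a1 did so with quantile normalization (-0.021), in slide 1 alone (-0.035), with the deposited table (-0.0225) and without scaling (-0.11). Over the other named genes and all alternatives, 627 values kept direction and call, 78 lost the call, 4 gained it and 11 changed sign. Where no construction is named, the cause was not tested.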

Other observations

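For some listed genes 1 probe was kept and 1 was not. For Slc10a1, probe A_55_P1954987 gave signals of 290449 to 352830 on the 8 arrays, while probe A_52_P69109, designed to the same transcript, gave 3.84 to 6.34 and was above background on 0 arrays. The Slc10a1 value of 0.11 ± 0.11 therefore rests on a probe that the other one for this transcript does not bear out. For Rxrg the probes gave 2079 to 2595 and 3.32 to 42.7, and for Nr1i3 28.7 to 82.0 and 6.07 to 25.9. Slc51a, Slc51b, Fabp6 and Slc10a2 have 1 probe each on this array, so no such comparison within a gene could be made for them.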
